A study of Mus musculus with 10 samples.

Results

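Fc gamma receptors bind the constant region of immunoglobulin G and tie antibody to the behaviour of myeloid cells. The genes described here are Fcgr1, Fcgr3 and Fcgr4, which encode the activating receptors of the mouse, Fcgr2b, which encodes the inhibitory receptor, and Fcer1g, which encodes the common gamma chain. They were chosen by gene symbol and are 5 of the 48526 gene identifiers in the count table. All 5 were matched, and all 5 passed the filter on low counts. RNA was sequenced from 10 libraries of cells sorted from the aorta of mice and labelled as endothelial. The first group was 5 libraries from ApoE mice exposed to acute mental stress, 3 h a day over 3 days in a row, and the second was 5 libraries from non-stressed ApoE mice. ApoE is the strain given for both groups. The sources used here give neither the alleles nor the age of the mice, nor whether a library came from 1 animal or a pool, and the p-values refer to the spread among the libraries.

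An activating Fc gamma receptor carries no signalling motif of its own. It pairs with the gamma chain, whose immunoreceptor tyrosine-based activation motif (ITAM) is phosphorylated by Src family kinases and then recruits the kinase Syk, which leads to phagocytosis, oxidative burst and cytokine release. Fcgr2b carries an inhibitory motif (ITIM) in its own tail and recruits the lipid phosphatase SHIP-1, encoded by Inpp5d, which dampens that signal. In mice the receptors are found mainly on myeloid cells: Fcgr1 on macrophages and inflammatory monocytes, Fcgr3 on most myeloid cells, and Fcgr4 most of all on non-classical monocytes, which patrol the vessel wall. B cells express Fcgr2b as their Fc gamma receptor.

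On the GRCm38 build, 4 of the genes lie together on chromosome 1: Fcgr2b (ENSMUSG00000026656) at chr1:170958617-170976547 on the minus strand, Fcgr4 (ENSMUSG00000059089) at chr1:171018920-171029761 on the plus strand, Fcgr3 (ENSMUSG00000059498) at chr1:171051174-171064935 on the minus strand and Fcer1g (ENSMUSG00000058715) at chr1:171229572-171234365 on the minus strand. Fcgr1 (ENSMUSG00000015947) lies apart, at chr3:96282909-96293969 on the minus strand. Fcgr3 and Fcgr2b are the closest relatives. Their coding sequences matched at 89.8% of 755 aligned bases, with an identical run of 129 bases, while the other receptor pairs matched at 69.5% to 75.5% with runs of at most 14 bases. This bears on the counts, because a read inside an identical stretch cannot be given to 1 of the pair. In the annotated transcripts, 9.58% of the 50-base words of Fcgr3 also occurred in Fcgr2b, against 2.92% of those of Fcgr2b that occurred in Fcgr3; of 100-base words the shares were 2.54% and 0.753%. No other pair among the 5 genes shared a word of either length. With genes outside the 5, Fcgr2b shared 1.46% of its 50-base words and 0.65% of its 100-base words. The other members shared none with such genes. The sources used here do not give the read length, so the share of reads concerned is unknown and the split between Fcgr3 and Fcgr2b carries that uncertainty. The exons of Fcgr2b also overlap 155 bases of the antisense gene Gm38204, which averaged 0.0028 CPM (counts per 1000000 counts of the library).

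The first window shows 90 coding bases that are the same in both genes, at chr1:171057703-171057792 in Fcgr3 and chr1:170967992-170968081 in Fcgr2b. It is printed 5′ to 3′ along the transcripts, from the GENCODE transcripts.
Fcgr3 and Fcgr2b: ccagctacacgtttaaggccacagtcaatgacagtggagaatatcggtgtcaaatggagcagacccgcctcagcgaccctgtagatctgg
The second shows the window with the most differences, 8, marked in capitals, among windows of 90 bases that align without a gap inside 1 exon of each gene. It lies at chr1:171057849-171057938 in Fcgr3 and chr1:170968138-170968227 in Fcgr2b. Reads can be told apart at these bases.
Fcgr3: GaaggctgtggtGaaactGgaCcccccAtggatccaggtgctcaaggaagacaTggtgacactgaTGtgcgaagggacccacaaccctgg
Fcgr2b: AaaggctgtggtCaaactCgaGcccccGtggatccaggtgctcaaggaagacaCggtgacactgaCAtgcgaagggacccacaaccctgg

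The promoters of the 5 genes are shown because activating and inhibitory receptors are compared below. Each line holds the 130 bases before the RefSeq start site (GRCm38.p6), read toward the gene: chr3:96293970-96294099 for Fcgr1, chr1:171059404-171059533 for Fcgr3 (the first of its 2 listed starts), chr1:171018796-171018925 for Fcgr4, chr1:170976072-170976201 for Fcgr2b and chr1:171234350-171234479 for Fcer1g. Capitals mark matches to GAGGAA, 1 form of the site bound by PU.1, the transcription factor that drives myeloid genes. Both strands were searched.
Fcgr1: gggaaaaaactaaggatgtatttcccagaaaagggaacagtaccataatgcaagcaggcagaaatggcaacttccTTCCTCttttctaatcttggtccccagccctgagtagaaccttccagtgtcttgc
Fcgr3: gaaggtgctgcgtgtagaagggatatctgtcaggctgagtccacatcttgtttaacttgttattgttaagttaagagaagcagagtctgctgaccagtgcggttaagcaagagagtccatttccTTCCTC
Fcgr4: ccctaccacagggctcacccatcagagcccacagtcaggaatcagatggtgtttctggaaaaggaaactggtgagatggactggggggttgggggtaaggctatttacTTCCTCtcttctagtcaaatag
Fcgr2b: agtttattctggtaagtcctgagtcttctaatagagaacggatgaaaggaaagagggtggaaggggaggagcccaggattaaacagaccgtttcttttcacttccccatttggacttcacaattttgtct
Fcer1g: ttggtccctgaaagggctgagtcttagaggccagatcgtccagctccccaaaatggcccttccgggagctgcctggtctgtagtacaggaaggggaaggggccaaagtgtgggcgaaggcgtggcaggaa
GAGGAA, read here as TTCCTC, occurred in the windows of the 3 activating receptors, 55 to 50 bases before the start in Fcgr1, 6 to 1 in Fcgr3 and 22 to 17 in Fcgr4. It was not in the windows of Fcgr2b or Fcer1g, although the shorter GGAA that it contains can be read in both. Of all 32851 promoters of the same length, 12.6% held it. The motif and the windows were chosen after the sequences had been seen, and a match is a description of the letters only.

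Library totals ran from 18020220 to 30168890 counts in the stressed group and from 24373063 to 38237346 in the non-stressed group, and levels are given in CPM. The limit that a count of 0 allows, taken as 3 counts, was 0.0785 to 0.166 CPM depending on the library. The defining markers of the labelled cell type were nearly absent: of 10 endothelial markers, 7 were under 1 CPM in every library, among them Cdh5, with Tek, Emcn and Cldn5 at 0 throughout. The 10 endothelial markers summed to 18.8 to 47.5 CPM in stressed and 19.2 to 45.0 CPM in non-stressed libraries, most of it Vwf, which platelets also express. The 10 monocyte and macrophage markers summed to 31987 to 39600 CPM in stressed and 24846 to 38386 CPM in non-stressed libraries. Levels below are therefore levels in these sorted samples, and no value is assigned to endothelial cells. Xist was high and the Y-linked gene Ddx3y had 0 reads in replicates 1 and 5 of each group, and Ddx3y was read in replicates 2, 3 and 4 of each group, so both groups held 2 libraries of the first kind and 3 of the second.

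All 5 genes were strongly read in every library. Fcer1g had the most counts, Fcgr3, Fcgr2b and Fcgr1 came next, and Fcgr4 had the fewest, with between 673 and 3064 reads per library. No member passed the test between stressed and non-stressed libraries: 0 of 5 were called at an adjusted p under 0.05 by the quasi-likelihood test of edgeR, where 0.0075% of the 13334 genes tested were called, that is 1 gene (Chil3). At an unadjusted p under 0.05, 1 of 5 was higher in stressed libraries (Fcgr3), against 2.59% of all genes tested, and 0 were lower, against 2.95%. In none of the 5 were the groups fully apart, which they were in 1.11% of all genes tested (0.592% higher and 0.517% lower in stressed libraries). In bulk samples, fewer cells of a type and less RNA per cell cannot be told apart.

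**Figure D1:**
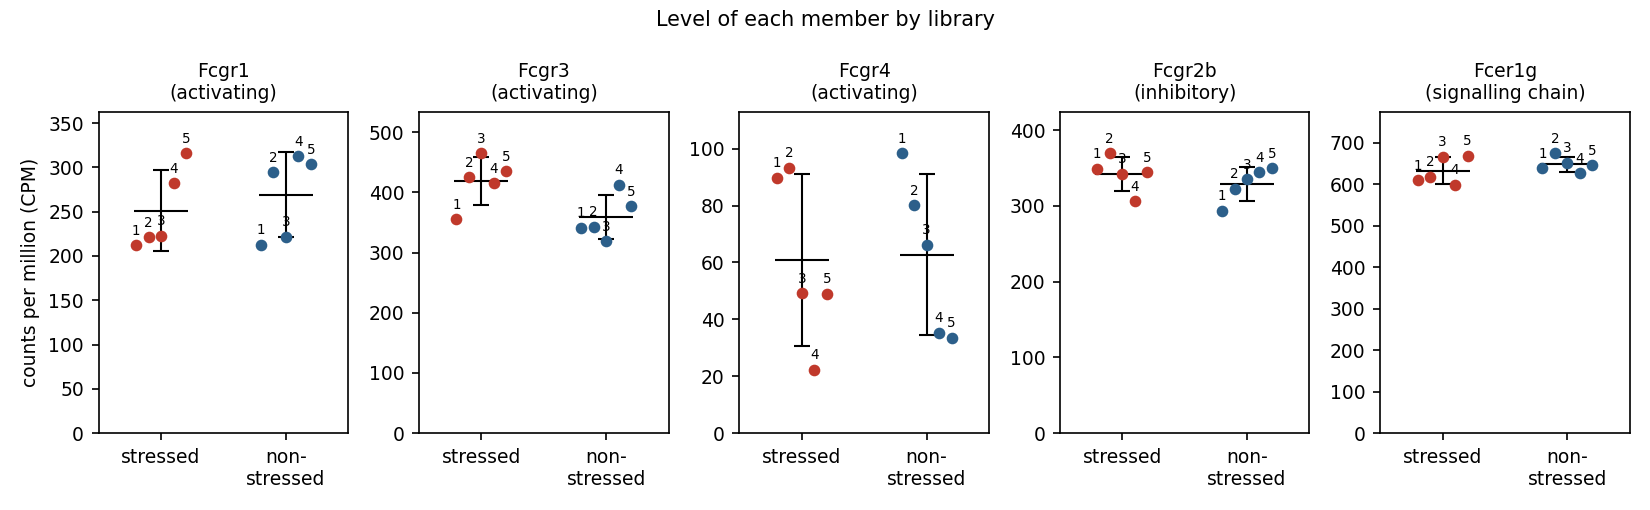
Level of Fcgr1, Fcgr3, Fcgr4, Fcgr2b and Fcer1g in CPM (vertical axes, each from 0) in each stressed (red) and non-stressed (blue) library; numbers are replicate numbers, horizontal bars are group means and whiskers are 1 SD (n = 5 each). Fcgr3 lay mostly higher in stressed libraries, at 419 ± 40.1 against 359 ± 36.6 CPM, Fcgr4 spread over 4.41-fold within the 10 libraries, and Fcer1g over 1.13-fold.

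Fcgr3 encodes the low-affinity activating receptor found on most mouse myeloid cells. It had 355, 425, 465, 415 and 435 CPM in stressed libraries 1 to 5, against 341, 343, 319, 413 and 377 CPM in non-stressed libraries 1 to 5. The stressed libraries were mostly the higher ones: 4 of 5 lay above every non-stressed library and 5 of 5 lay above the non-stressed median, while stressed library 1 fell inside the non-stressed range. The means were 419 ± 40.1 CPM in stressed and 359 ± 36.6 CPM in non-stressed libraries (SD, n = 5 each). The log2 fold change was 0.23 (SE 0.09, 95% interval 0.04 to 0.41, a fold of 1.17), with an unadjusted p of 0.0185 and an adjusted p of 0.874 (edgeR, quasi-likelihood test). It ranked 271 by p among the genes tested, and it is reported as not passing. The difference was 0.15 (log2) between the Xist libraries (2 against 2) and 0.29 between the Ddx3y libraries (3 against 3). These did not differ by test: the interaction term was 0.12 with an SE of 0.19 (unadjusted p = 0.529, edgeR quasi-likelihood test). The monocyte and macrophage list had a summed level of 35711 ± 3300 CPM in stressed and 31599 ± 5503 CPM in non-stressed libraries. Most of it was Lyz2 (means of 23302 CPM in stressed and 20489 CPM in non-stressed libraries) and Fn1 (6125 and 4551 CPM). Its genes did not all go the same way. Csf1r, Ccr2 and Ly6c2 had log2 fold changes of -0.05, -0.08 and -0.29, while the other genes of the list were above 0. Across the 10 libraries Fcgr3 went with the mean log2(CPM + 1) of that list, with Pearson's r of 0.80 (permutation p = 0.0046, adjusted 0.0632) and Spearman's rho of 0.82 (permutation p = 0.0058, adjusted 0.0874), both adjusted over 45 relations. Without the 2 libraries farthest from the median of the list r was 0.84, with group means removed it was 0.62, and within the 6 Ddx3y libraries it was 0.84. With each of the other marker lists Fcgr3 had a negative r, the most negative with the small endothelial list. There r was -0.83 (permutation p = 0.0047, adjusted 0.0632) and rho was -0.76 (permutation p = 0.0156, adjusted 0.102). Without the 2 farthest libraries r was -0.92. Of the 10 genes of the endothelial list, 7 were under 1 CPM in every library. The part of these lists in the Fcgr3 difference was not tested.

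Fcgr1 encodes the high-affinity receptor, the one able to hold monomeric immunoglobulin G. Its levels were 212, 221, 223, 282 and 316 CPM in stressed libraries 1 to 5, against 213, 295, 222, 313 and 303 CPM in non-stressed libraries 1 to 5. Libraries of both groups fell at a lower level of 212 to 223 CPM and a higher one of 282 to 316 CPM, so the groups overlapped almost entirely. The means were 251 ± 45.7 CPM in stressed and 269 ± 47.8 CPM in non-stressed libraries (SD, n = 5 each). The log2 fold change was -0.10 (SE 0.14, 95% interval -0.39 to 0.19, adjusted p = 0.971 by edgeR). Within groups, the SD of its log2 CPM was 0.26, at the 88.8th percentile of the 5454 genes with a mean log2 CPM of at least 5.

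Fcgr4 encodes the activating receptor best known from non-classical monocytes. It had 89.7, 93.3, 49.2, 22.3 and 49.0 CPM in stressed libraries 1 to 5, against 98.3, 80.1, 66.3, 35.3 and 33.6 CPM in non-stressed libraries 1 to 5. High and low libraries occurred in both groups, and the highest was 4.41 times the lowest. The means were 60.7 ± 30.2 CPM in stressed and 62.7 ± 28.2 CPM in non-stressed libraries (SD, n = 5 each). The log2 fold change was -0.04 with an SE of 0.35 and a 95% interval of -0.79 to 0.71 (adjusted p = 0.998, edgeR). Leaving out 1 library at a time moved the estimate between -0.26 and 0.17. Its within-group SD, 0.77 on the log2 scale, was at the 99.4th percentile of well-read genes.

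Fcgr2b, the inhibitory receptor, had 349, 369, 342, 306 and 345 CPM in stressed libraries 1 to 5, against 294, 323, 335, 344 and 349.5 CPM in non-stressed libraries 1 to 5. The groups overlapped, with the lowest value in a non-stressed and the highest in a stressed library. The means were 342 ± 22.8 CPM in stressed and 329 ± 22.2 CPM in non-stressed libraries (SD, n = 5 each), and the log2 fold change was 0.06 (SE 0.07, 95% interval -0.09 to 0.21, adjusted p = 0.965 by edgeR). The B cell marker list, which belongs to the other main cell type with Fcgr2b, summed to 119 to 285 CPM in stressed and 101 to 472 CPM in non-stressed libraries. It had r of -0.45 with Fcgr2b over the 10 libraries (permutation p = 0.199, adjusted 0.410) and rho of -0.27 (permutation p = 0.450, adjusted 0.724), with r of -0.42 without the 2 farthest libraries.

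Fcer1g, the gamma chain that the 3 activating receptors need for signalling, had 609, 618, 667, 599 and 668 CPM in stressed libraries 1 to 5, against 639, 674, 652, 627 and 646 CPM in non-stressed libraries 1 to 5. It was among the most even genes of the data: the highest library was 1.13 times the lowest, and its within-group SD of 0.06 on the log2 scale was at the 1.78th percentile of well-read genes. The means were 632 ± 32.8 CPM in stressed and 648 ± 17.5 CPM in non-stressed libraries (SD, n = 5 each). The log2 fold change was -0.03 (SE 0.06, 95% interval -0.15 to 0.09, adjusted p = 0.987 by edgeR). Mast cells and basophils also use this chain. Their marker list summed to 12.4 to 68.9 CPM in stressed and 7.54 to 104 CPM in non-stressed libraries, with Mcpt4 and Tpsb2 at 0. Most of it was Hdc, at a mean of 30.1 CPM in stressed and 34.8 CPM in non-stressed libraries. Fcer1a, Ms4a2, Cpa3 and Mcpt8 averaged under 1 CPM in each group.

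To compare levels between genes, CPM was divided by the length of all annotated exons in kilobases. Per kilobase, Fcer1g stood at 732 ± 29.8 CPM over the 10 libraries, Fcgr3 at 224 ± 27.8, Fcgr1 at 100.4 ± 17.4, Fcgr2b at 58.0 ± 3.86 and Fcgr4 at 49.1 ± 22.0 (SD, n = 10). Each gene was above the next in all 10 libraries, except Fcgr2b and Fcgr4, whose order held in 6 of 10. The place of the inhibitory receptor depended on the length used: its annotated exons cover 5790 bases and its coding sequence 1020, and per kilobase of coding sequence it stood at 329 CPM, above Fcgr1 at 214 CPM and below Fcgr3 at 485 CPM.

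The balance of activating to inhibitory receptor was taken within each library, where depth cancels. The 3 activating receptors together had 2.14 ± 0.202 reads per read of Fcgr2b in stressed and 2.10 ± 0.179 in non-stressed libraries (SD, n = 5 each), with ranges of 1.88 to 2.35 in stressed and 1.81 to 2.22 in non-stressed libraries. The summed balance therefore differed by less than the spread between libraries. Singly, Fcgr3 stood at 1.23 ± 0.145 reads per Fcgr2b read in stressed and 1.09 ± 0.0961 in non-stressed libraries, a log2 difference of 0.17 (exact permutation test, two-sided, p = 0.135, adjusted over the 3 receptors 0.405). Fcgr1 stood at 0.739 ± 0.166 in stressed and 0.815 ± 0.115 in non-stressed libraries (log2 difference -0.16, exact permutation p = 0.325, adjusted 0.488). Fcgr4 stood at 0.174 ± 0.0795 in stressed and 0.196 ± 0.101 in non-stressed libraries (log2 difference -0.15, exact permutation p = 0.817, adjusted 0.817). None of the 3 passed, and with 252 assignments of the libraries the smallest p that this test can give is 0.00794.

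**Figure D2:**
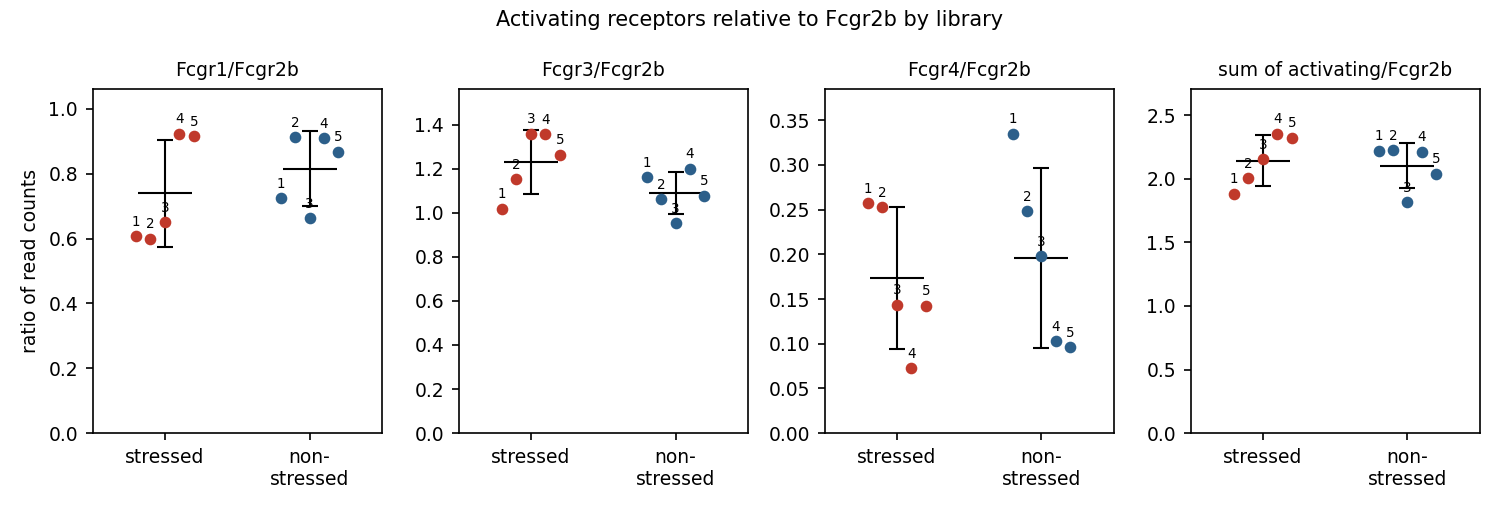
Ratio of read counts of each activating receptor, and of their sum, to Fcgr2b (vertical axes, each from 0) in stressed (red) and non-stressed (blue) libraries; numbers are replicate numbers, bars are means and whiskers are 1 SD (n = 5 each). The sum stood at 2.14 ± 0.202 in stressed and 2.10 ± 0.179 in non-stressed libraries, with all 4 panels overlapping.

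Relative to the gamma chain, Fcgr3 differed more between the groups than Fcgr1 or Fcgr4 did. The ratio of Fcgr3 to Fcer1g was 0.583, 0.687, 0.697, 0.693 and 0.651 in stressed libraries 1 to 5, against 0.534, 0.508, 0.489, 0.658 and 0.583 in non-stressed libraries 1 to 5. Of the stressed libraries 3 of 5 lay above every non-stressed one, and 4 of 5 non-stressed libraries lay below every stressed one; non-stressed library 4 was the exception. The margin was small at one place, with stressed library 1 at 0.5832 against non-stressed library 5 at 0.5827. The log2 difference was 0.26, a fold of 1.20 (exact permutation test, two-sided, p = 0.0317, adjusted over the 3 receptors 0.0952), and did not pass after adjustment. Without non-stressed library 4 it was 0.33, with an adjusted exact p of 0.0476. That was the lowest when libraries were left out in turn, and the adjusted exact p ran up to 0.214. For Fcgr1 the log2 difference was -0.06 (exact permutation p = 0.794) and for Fcgr4 it was -0.06 (exact permutation p = 0.881). Within the pool of activating receptor reads, Fcgr3 took 57.3 ± 3.61% in stressed and 51.9 ± 2.45% in non-stressed libraries, Fcgr1 took 34.2 ± 4.76% in stressed and 38.8 ± 4.11% in non-stressed libraries, and Fcgr4 took 8.44 ± 4.52% in stressed and 9.30 ± 4.53% in non-stressed libraries.

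Shared variation of the activating receptors was not established with 10 libraries. Over the 10 pairs of members, no correlation across the 10 libraries passed after adjustment. The strongest was between Fcgr1 and Fcgr4, which ran opposite, with Pearson's r of -0.66 (permutation p = 0.0423, adjusted 0.423) and Spearman's rho of -0.73 (permutation p = 0.0201, adjusted 0.201). Without the 2 libraries farthest from the median of Fcgr1, r was -0.64, and within the 6 Ddx3y libraries it was -0.49. Fcgr1 with Fcgr3 had r of 0.26, or 0.54 with group means removed. Fcgr3 with Fcgr4 had r of -0.46, or -0.55 with group means removed.

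By the sign of Pearson's r, Fcgr4 and Fcgr1 also stood in opposite relation to every marker list but that of dendritic cells (r of 0.18 and 0.28). One was that of non-classical monocytes, a list of 10 genes that includes Nr4a1, the transcription factor these cells need, and Ace, Treml4 and Cx3cr1. The list summed to 5080 to 6739 CPM in stressed and 4452 to 8126 CPM in non-stressed libraries, so the groups overlapped. Fcgr4 went up with its mean log2(CPM + 1), with Pearson's r of 0.84 (permutation p = 0.0028, adjusted 0.0632) and Spearman's rho of 0.87 (permutation p = 0.0020, adjusted 0.0874). Fcgr1 went down with it, with r of -0.75 (permutation p = 0.0095, adjusted 0.0856) and rho of -0.82 (permutation p = 0.0055, adjusted 0.0874). Neither passed the adjustment over 45 relations. The permutations shuffled all 10 libraries freely. If same-numbered libraries are paired, of which a hint is given at the end, the p-values of these correlations may be too small. Leaving out the 2 farthest libraries gave r of 0.86 for Fcgr4 and -0.64 for Fcgr1, and within the 6 Ddx3y libraries r was 0.76 and -0.61. The opposite signs were not particular to this list. With the platelet list r was 0.71 for Fcgr4 (permutation p = 0.0251, adjusted 0.162; rho = 0.61, permutation p = 0.0675, adjusted 0.217; r = 0.59 without the 2 farthest libraries) and -0.73 for Fcgr1 (permutation p = 0.0218, adjusted 0.162; rho = -0.66, permutation p = 0.0427, adjusted 0.166; r = -0.56 without the 2 farthest libraries). Within the 6 Ddx3y libraries the platelet values were 0.76 for Fcgr4 and -0.83 for Fcgr1. The remaining lists with opposite signs follow, and none of these relations passed the adjustment. With the endothelial list r was 0.66 for Fcgr4 and -0.30 for Fcgr1, and with the B cell list 0.60 and -0.30. With the monocyte and macrophage list the signs were turned, at -0.44 for Fcgr4 and 0.15 for Fcgr1. With the NK and T cell list Fcgr1 had r of -0.54, or -0.83 without the 2 farthest libraries. With the neutrophil list r was 0.68 for Fcgr4 (permutation p = 0.0361, adjusted 0.193; rho = 0.73, permutation p = 0.0204, adjusted 0.102; r = 0.51 without the 2 farthest libraries) and -0.60 for Fcgr1 (permutation p = 0.0746, adjusted 0.210; rho = -0.76, permutation p = 0.0149, adjusted 0.102; r = -0.38 without the 2 farthest libraries). With the mast cell and basophil list r was 0.64 for Fcgr4 (permutation p = 0.0493, adjusted 0.202; rho = 0.73, permutation p = 0.0198, adjusted 0.102; r = 0.66 without the 2 farthest libraries) and -0.55 for Fcgr1 (permutation p = 0.102, adjusted 0.271; rho = -0.79, permutation p = 0.0087, adjusted 0.0979; r = -0.80 without the 2 farthest libraries). Fcgr4 went as closely with the NK and T cell markers (r = 0.84, permutation p = 0.0056, adjusted 0.0632; rho = 0.73, permutation p = 0.0203, adjusted 0.102; r = 0.82 without the 2 farthest libraries), which summed to only 12.9 to 82.9 CPM in stressed and 19.0 to 117 CPM in non-stressed libraries. Fcgr3, which NK cells also express, had r of -0.66 with that list (permutation p = 0.0429, adjusted 0.193), or -0.86 without the 2 farthest libraries. Its rho was -0.42 (permutation p = 0.232, adjusted 0.476). The r of Fcgr3 was negative with every list but that of monocytes and macrophages, and the cell source of its reads was not tested.

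**Figure D3:**
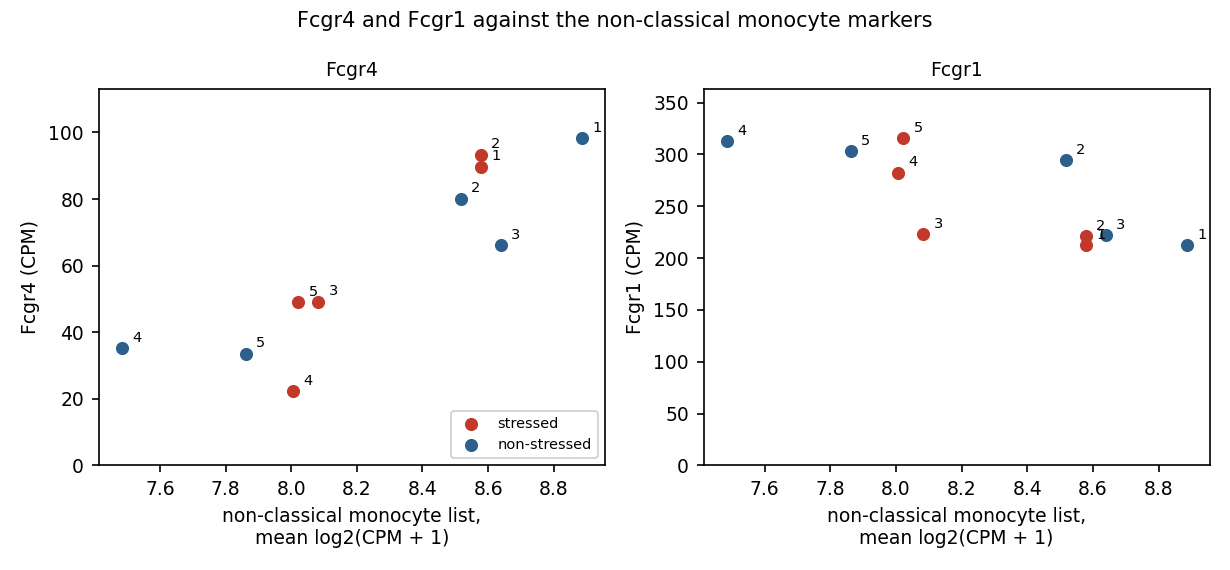
Fcgr4 (left) and Fcgr1 (right) in CPM against the mean log2(CPM + 1) of 10 non-classical monocyte markers, 1 point per library with its replicate number, stressed in red and non-stressed in blue. Fcgr4 is higher and Fcgr1 lower toward the right (r of 0.84 and -0.75 over 10 libraries), with both groups spread along the axis.

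The genes whose log2 CPM ran most like each member across the 10 libraries were taken from 8589 genes with a mean log2 CPM of at least 3, as a description of the libraries. As the highest of so many genes over 10 libraries, their r values are large by selection, and they were not tested. For Fcgr1 they were Zbp1, Stat2 and Mndal (r of 0.94, 0.94 and 0.93), all known as interferon-inducible genes. For Fcgr3 they were 1600010M07Rik, Lrpap1 and Arrb2 (r of 0.96, 0.96 and 0.95). For Fcgr4 they were Rassf5, Atp2c1 and Cd82 (r of 0.94, 0.94 and 0.93). For Fcgr2b they were Gab1, Rplp0 and Kat8 (r of 0.93, 0.90 and 0.89), and for Fcer1g they were Pcbp1, Lrrc59 and Rxra (r of 0.96, 0.92 and 0.89).

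Genes that act with these receptors were read from 8 lists. Of 115 listed genes, 104 were tested; 0 were called after adjustment by edgeR, and 6 were higher and 2 lower at an unadjusted p under 0.05, or 7.69% against 5.53% of all genes tested. The median log2 fold change was 0.01 over the listed genes and 0.005 over all genes tested. Among 20 genes of ITAM signalling, 9 were higher and 11 lower in stressed libraries, with a median of -0.005 and 1 at an unadjusted p under 0.05. That gene was Card9, the adaptor that links Syk to NF-kappaB, at 287 ± 49.3 CPM in stressed and 225 ± 35.4 CPM in non-stressed libraries (log2 fold change 0.35, SE 0.12, adjusted p = 0.836 by edgeR). The proximal kinases were close to 0: Syk had a log2 fold change of 0.04 (SE 0.06), Lyn 0.01 (SE 0.07) and Fgr 0.01 (SE 0.08). Vav3, a guanine nucleotide exchange factor, had -0.26 (SE 0.14).

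The inhibitory side was read from 13 genes of ITIM signalling, of which 10 were higher and 3 lower, with a median of 0.03. Unadjusted p was under 0.05 for 2 of them, or 15.4% of this short list against 5.53% of all genes tested. Both are adaptors of the Dok family that restrain signalling. Dok3 stood at 398 ± 53.0 CPM in stressed and 329 ± 23.8 CPM in non-stressed libraries (log2 fold change 0.27, SE 0.09, adjusted p = 0.829 by edgeR). Dok1 ranged from 88.2 to 96.6 CPM in stressed and from 77.3 to 86.3 CPM in non-stressed libraries. It was the only listed gene whose groups were fully apart, as were 0.592% of all genes tested in that direction; its log2 fold change was 0.18 (SE 0.07), with an adjusted p of 0.874 by edgeR. Inpp5d, which encodes the phosphatase that Fcgr2b recruits, had -0.11 (SE 0.07), Ptpn22 had -0.23 (SE 0.11) and Ptpn6, which encodes SHP-1, had 0.03 (SE 0.07).

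**Figure D4:**
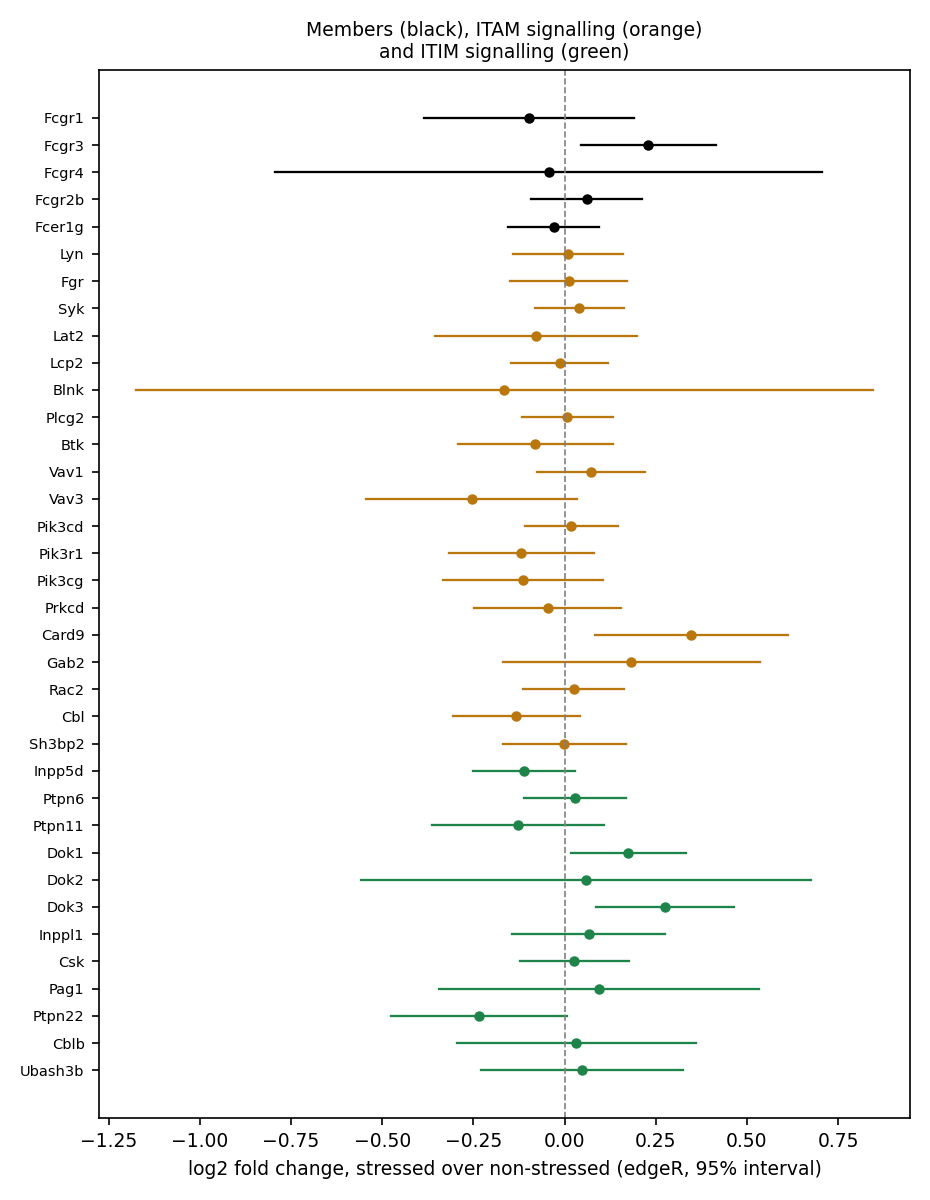
Log2 fold change of stressed over non-stressed libraries with its 95% interval (edgeR) for the 5 members (black), genes of ITAM signalling (orange) and the genes of ITIM signalling (green; Lyn, in both lists, is drawn once, and 1 gene of ITAM signalling is not drawn). Intervals of Fcgr3, Card9, Dok1 and Dok3 lie above 0 before adjustment, and none of these genes passed after it.

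Other receptors were read beside the members. A list was drawn up for receptors that use the gamma chain, but not all of its genes are known to need that chain, Clec7a and Pilrb1 among them. Of its 11 tested genes, 8 were higher and 3 lower, with 0 at an unadjusted p under 0.05. Clec4e, a sensor of microbial lipids, had a log2 fold change of 0.26 (SE 0.24) and Clec7a, the beta-glucan receptor, -0.02 (SE 0.08). Of 14 other inhibitory receptors of myeloid cells, 9 were higher and 5 lower. Unadjusted p was under 0.05 for 1, or 7.14% against 5.53% of all genes tested. This was Pirb, which binds major histocompatibility class I, at 752 ± 71.6 CPM in stressed and 640.2 ± 62.2 CPM in non-stressed libraries (log2 fold change 0.23, SE 0.08, adjusted p = 0.836 by edgeR). Pirb belongs to a family of near-identical receptor genes, so its count is uncertain. Of 9 tested other receptors for immunoglobulin, 1 was higher and 8 lower, with a median of -0.15 and 0 at an unadjusted p under 0.05; leaving out 1 library at a time moved that median between -0.30 and -0.07. Of the 8, 5 are known from B cells (Fcer2a, Fcmr, Fcrla, Fcrl1 and Fcrl5), and Fcrla is itself in the B cell marker list. All 10 genes of that list also had log2 fold changes below 0, with a summed level of 216 ± 72.0 CPM in stressed and 260.1 ± 154 CPM in non-stressed libraries (SD, n = 5 each), and their part in the receptor counts was not tested. Fcgrt, which encodes the neonatal Fc receptor that recycles immunoglobulin G, had -0.15 (SE 0.10) and Trim21, the cytosolic antibody receptor, -0.19 (SE 0.12). Among 6 other ITAM chains, 2 were higher and 4 lower, the B cell markers Cd79a and Cd79b among the lower; Tyrobp, which encodes DAP12, stood at 1077 ± 78.9 CPM in stressed and 1028 ± 55.9 CPM in non-stressed libraries (log2 fold change 0.07, SE 0.07).

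Downstream, 20 genes of phagocytosis split into 10 higher and 10 lower with a median of -0.02. Arpc1b, a subunit of the actin-nucleating complex, had a log2 fold change of 0.16 with an SE of 0.07 (adjusted p = 0.877 by edgeR). It was the only one at an unadjusted p under 0.05, or 5.0% of the list against 5.53% of all genes tested. Cybb, the catalytic subunit of the phagocyte oxidase, had -0.10 (SE 0.07). Among 12 transcription factors of myeloid Fc receptor genes, 8 were higher and 4 lower, and 3 had an unadjusted p under 0.05, 1 of them higher and 2 lower. That was 25.0% of this short list, against 5.53% of all genes tested, and 0 were called after adjustment. One of these was Sp1, a widely expressed factor, with -0.16 (SE 0.08). Spi1, which encodes PU.1, had 0.05 (SE 0.06). The genes beside the members on chromosome 1 gave no pass either: Sdhc had -0.05 (SE 0.11) and Ppox 0.23 (SE 0.13).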

How the data were processed

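The submitters' processing notes name Trimmomatic, STAR and featureCounts with mm10, without versions. Per the labels' protocols, a PicoPure kit was used for RNA and TruSeq Stranded for libraries. Neither the annotation, the read length nor the strand setting is stated, so counts of genes with an antisense or overlapping partner are uncertain. The authors deposited raw counts, one row a gene and one column a library; 48058 of 48526 identifiers matched a symbol in GENCODE vM21.

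The test was edgeR 4.0.16 under R 4.3.3 (filterByExpr with a minimum count of 10, TMM factors, quasi-likelihood F test, Benjamini-Hochberg adjustment over 13334 genes at 0.05). CPM of members and of marker lists, and all ranges of CPM, use plain library totals. A mean CPM beside the fold change of another gene uses TMM-scaled totals. Whether the groups of a gene were fully apart was also read on TMM-scaled CPM. A standard error is the fold change divided by the square root of F. Ratios were compared by exact permutation tests and correlations by permutation with 100000 resamples (scipy 1.17.1). Both kinds shuffled the libraries freely and did not keep same-numbered libraries together. Limits from a count of 0 are taken as 3 counts and cover counting error only. No 2 libraries of a group were duplicates (chi-square per degree of freedom 22.3 to 69.8). The fit was tested on simulated data with folds larger than that of any member, so it does not show whether changes as small as theirs would be found.

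Groups and replicate numbers come from the sample titles. Members and lists were chosen with earlier results of these data known. Genes named are the members; in each list, up to 2 tested genes per direction by smallest p and the 2 with the highest mean CPM, of which those bearing on the members are given; the 3 genes most like each member; and Chil3. Syk and the neighbours on chromosome 1 were added after their values were seen. A few named genes are not reported here. Alternatives were RLE factors, no filter, DESeq2 1.42.0, limma 3.58.1 (voom with quality weights), the replicate number as a block, a Ddx3y covariate, other gene lengths and leaving out each library.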

Additional observations from a re-analysis of the deposited data

How the results depend on the processing

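No member and no listed gene was called at an adjusted p under 0.05 under any alternative that was run. Over all genes, 1 was called in the main analysis, against 10 with no filter on low counts, 19 with DESeq2, 2 with limma-voom, 24 with the replicate number as a block and 1 to 2 when 1 library was left out. Same-numbered libraries deviated together for 4 of 5 numbers, with correlations of 0.128, 0.156, 0.118 and 0.124 for numbers 1, 2, 4 and 5 and -0.027 for number 3, and 4 of 5 matched best with their own number; Xist and Ddx3y also go by number. This is a hint of pairing from the data. As number 3 did not share it and no label ties the numbers to a shared source, the block was kept as an alternative. The permutation p-values of ratios and correlations do not allow for such pairing. Under the block Fcgr3 had a log2 fold change of 0.23 (adjusted p = 0.469), and Fcgr4 had -0.09 with an SE of 0.14 (adjusted p = 0.970), against an SE of 0.35 with no block. Fcgr3 kept its direction in every alternative, at 0.18 to 0.29 without 1 library (adjusted p 0.576 to 0.999) and 0.23 to 0.30 otherwise (adjusted p 0.340 to 0.931). Fcgr1, Fcgr2b and Fcer1g kept theirs too. Without 1 library, Fcgr4 ran from -0.26 to 0.17, its ratio to Fcgr2b from -0.36 to 0.13, its ratio to Fcer1g from -0.26 to 0.24, and the ratio of Fcgr1 to Fcer1g from -0.14 to 0.0059, so these have no stable sign. The ratio of Fcgr3 to Fcer1g ran from 0.22 to 0.33 and passed only without non-stressed library 4. The median of the ITAM list moved to -0.03 without stressed library 1. The cause of these shifts was not tested. With no block, the Fcgr4 interval of -0.79 to 0.71 limits what could be seen; the block gives a smaller SE.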
